A study of Mus musculus with 9 samples.

Results

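The long noncoding RNAs Malat1, Neat1, Gas5, Snhg1, Snhg12, Miat and Kcnq1ot1 are described here in murine leukaemia cells depleted of Syncrip. They were chosen by gene symbol as 7 widely studied noncoding transcripts, and entries of the same symbol were summed in each of the 9 count tables. Of the 7 RNAs, 6 had an entry among 38926 gene symbols and 5 passed the filter on low counts that left 12663 genes for testing. Kcnq1ot1 had no entry under that symbol and was not analysed here, and Miat had too few reads to test.

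The cells carry MLL-AF9, a fusion of a histone methyltransferase with a transcription elongation factor that drives acute myeloid leukaemia, and per the labels they had been transplanted serially to the tertiary stage. Syncrip encodes an hnRNP protein that binds RNA and acts on its translation and stability. The groups were cells transduced with Syncrip shRNA-1 (3 libraries), cells transduced with Syncrip shRNA-2 (3 libraries) and cells transduced with a control hairpin (3 libraries), all assessed at day 4 after transduction. The design text calls the control a luciferase hairpin and the sample labels call it a scramble hairpin. All 3 groups thus share the fusion, the transplantation history and a hairpin vector. Transduction and processing were done separately for each sample, and whether replicates came from different animals is not stated, so p-values measure the spread between these samples, which may be technical.

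Long noncoding RNAs act as transcripts and fall into classes by where they reside and how their ends are made. Malat1 gathers in nuclear speckles, the stores of splicing factors, and Neat1 is the scaffold of paraspeckles, nuclear bodies that hold RNA-binding proteins. Gas5, Snhg1 and Snhg12 are hosts of small nucleolar RNAs (snoRNAs), which guide the modification of ribosomal RNA: the snoRNAs are cut from the introns, and the spliced exons are exported, engaged by ribosomes and in several hosts removed by nonsense-mediated decay. Gas5 was named for its accumulation in growth-arrested mouse cells. Kcnq1ot1 silences neighbouring imprinted genes on the paternal chromosome, and Miat is best known from neural and cardiac cells.

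The libraries were primed with oligo-dT, so the ends of the transcripts decide where reads can start. The last 60 bases of the annotated transcripts are shown for the RNAs with a conventional tail, with the polyadenylation hexamer (AATAAA or ATTAAA) in capitals (GENCODE M21, GRCm38, sense strand). They lie at chr1:161038476-161038535 (plus strand) for Gas5, chr19:8726384-8726443 (plus strand) for Snhg1, chr4:132310965-132311024 (plus strand) for Snhg12, chr19:5842307-5842366 (minus strand) for the short form of Neat1 and chr19:5795690-5795749 (minus strand) for the annotated end of Malat1.
Gas5 tail: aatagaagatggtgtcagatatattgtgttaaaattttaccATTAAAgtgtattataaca
Snhg1 tail: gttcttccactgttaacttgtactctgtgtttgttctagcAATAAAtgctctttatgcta
Snhg12 tail: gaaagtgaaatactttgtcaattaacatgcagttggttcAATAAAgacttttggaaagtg
Neat1 short form tail: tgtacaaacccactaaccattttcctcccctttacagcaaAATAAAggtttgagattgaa
Malat1 tail: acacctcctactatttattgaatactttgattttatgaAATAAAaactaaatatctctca
Each of the 5 ends held 1 such hexamer. At least 1 was found in the last 60 bases of 34.5% of all 141515 annotated mouse transcripts of at least 60 bases. That share pools every annotated form, retained-intron ones included, while the 5 ends are of selected forms.

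Most Malat1 does not end at that annotated tail, because RNase P cuts the nascent RNA upstream of a tRNA-like element (mascRNA), and the end left behind folds into a triple helix around a genome-encoded A tract. The long form of Neat1 ends in a related structure. Both ends are shown because such RNAs lack a poly(A) tail and are captured by oligo-dT only through internal A runs. The Malat1 stretch lies at chr19:5795918-5796099 and the Neat1 stretch at chr19:5824708-5824767 (GRCm38, minus strand), and the capitals mark a run of 16 bases that both share and, in Malat1, a run of 12 A.
Malat1 A tract: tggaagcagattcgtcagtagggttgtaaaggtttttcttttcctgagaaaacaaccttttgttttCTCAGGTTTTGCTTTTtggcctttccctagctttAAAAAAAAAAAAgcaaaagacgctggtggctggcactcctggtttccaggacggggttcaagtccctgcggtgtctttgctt
Neat1 long form tail: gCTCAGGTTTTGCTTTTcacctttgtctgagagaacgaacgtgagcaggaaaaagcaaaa
The shared 16 bases occurred in 2 of the 141515 transcripts, these 2. The 12 A of Malat1 begin at position 6674 of the 6983-base transcript, and the run ends 298 bases before the annotated end. A run of at least 10 A was found in 7.19% of all transcripts, in Malat1 and in Snhg12 (12 A, ending 1067 bases before the end of the 1538-base transcript), and in none of the transcripts taken for Neat1, Gas5 and Snhg1. For Malat1, reads primed at the internal tract and at the annotated tail cannot be told apart in counts per gene.

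The 5' ends of the snoRNA hosts are shown because several such genes start with a C followed by pyrimidines, the mark of mRNAs whose translation follows growth signals. Each line runs from 20 bases before the annotated start to 40 bases from it (RefSeq, GRCm38.p6, plus strand), at chr1:161035146-161035205 for the downstream of the 2 annotated Gas5 starts, chr4:132308658-132308717 for Snhg12 and chr19:8723467-8723526 for Snhg1. Capitals mark a run of at least 5 C or T that begins with C and begins between 10 bases before and 20 bases after the start.
Gas5 start: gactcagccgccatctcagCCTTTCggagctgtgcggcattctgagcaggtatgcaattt
Snhg12 start: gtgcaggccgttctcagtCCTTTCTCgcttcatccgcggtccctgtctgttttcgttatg
Snhg1 start: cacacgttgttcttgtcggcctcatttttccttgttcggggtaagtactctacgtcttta
Such a run stood at the Gas5 start shown and at the Snhg12 start, and in 37.64% of 32851 RefSeq windows searched the same way on the sense strand. None stood in that window at the Snhg1 start shown or at the upstream Gas5 start.

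Totals per library were 9559638 to 13416141 counts with shRNA-1, 14953491 to 15915940 with shRNA-2 and 13683660 to 19483923 in control cells. Syncrip itself averaged 17.8 ± 2.13 CPM (read counts scaled to a common library size) with shRNA-1, 56.7 ± 9.05 CPM with shRNA-2 and 227 ± 17.5 CPM in control cells (SD, n = 3 each). All 11 myeloid markers listed were expressed, with sums of 2497 to 3589 CPM with shRNA-1, 2975 to 4054 CPM with shRNA-2 and 1711 to 1947 CPM in control cells. That sum hides members that went other ways. Lyz2, a lysozyme gene, averaged 1293 CPM with shRNA-1, 1729 CPM with shRNA-2 and 402 CPM in control cells. Mpo, the granule enzyme myeloperoxidase, averaged 526 CPM with shRNA-1, 8.64 CPM with shRNA-2 and 21.1 CPM in control cells. Hoxa9 and Meis1, the transcription factor genes of this leukaemia, fell with both hairpins, and the Meis1 calls were lost without control replicate 3 (edgeR adjusted p = 0.0688 for shRNA-1 and 0.0511 for shRNA-2). These 4 genes were named after their values were seen. The sums of T, B, erythroid and stromal or epithelial markers reached at most 4.72, 17.8, 1.85 and 35.8 CPM in any library. Cd8a and Col3a1 were at 0 throughout, Cd79b made up nearly all of the B cell sum and Pecam1 most of the stromal one, and the part of these shifts in the values below was not tested. The ribosomal RNA entries were Gm26924 and the mitochondrial mt-Rnr1 and mt-Rnr2. Together they took 12.0% to 19.3% of the counts with shRNA-1, 6.10% to 15.8% with shRNA-2 and 4.77% to 8.29% in control cells. Control replicate 3 had the lowest ribosomal share and stood apart for several of the RNAs described here, so calls and folds of named genes that rest on it are also given without it.

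Neat1, Snhg12 and Snhg1 were among the genes in which control replicate 3 exceeded both other controls most. The ratio of control replicate 3 to the higher of the other controls was 4.85 for Neat1, the highest of 9314 genes with a mean of at least 5 CPM. It was 2.46 for Snhg12 (rank 9) and 2.42 for Snhg1 (rank 10), against 1.27 for Malat1 (rank 412) and 1.17 for Gas5 (rank 858). Of 20 long noncoding RNAs on the lists used here that reached this level, 7 had a ratio of at least 2, and of all 9314 genes 21 did (0.225%). The mean runs over all 9 libraries, control replicate 3 included, so a gene near 5 CPM can pass through its value there. Mir17hg and Dancr, a snoRNA host, passed only in that way, and they are part of these counts. Among 13 snoRNA hosts the count was 5, which besides Snhg12 and Snhg1 took in Snhg20 (3.38), Snhg5 (2.86) and Snhg15 (2.08), and all 13 had a ratio above 1, as had 33.7% of all genes. Mir17hg, the host of the miR-17-92 cluster, stood at 3.39, and Tug1 at 0.793. This ratio was chosen after the values were seen and is given as a description, with no test, and what sets this library apart was not tested.

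**Figure D1:**
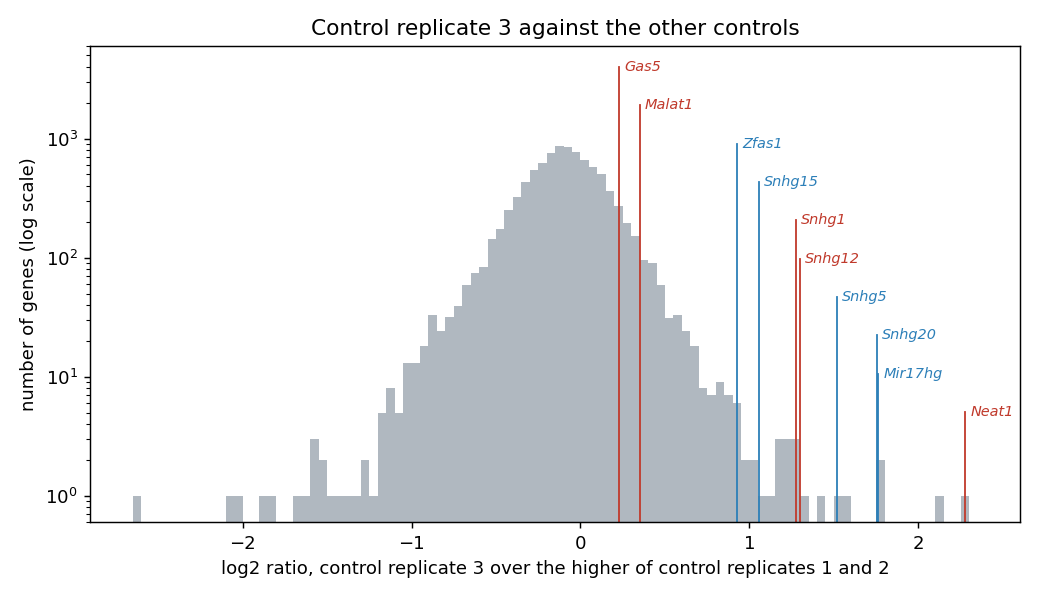
Histogram (log count axis) of the log2 ratio of control replicate 3 to the higher of control replicates 1 and 2 for 9314 genes with a mean of at least 5 CPM. Red lines mark the 5 tested RNAs and blue lines other long noncoding RNAs (line height has no meaning): Neat1, at a ratio of 4.85, lies right of all other genes, and Snhg1 and Snhg12, at 2.42 and 2.46, lie in the right tail.

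Of the 5 tested RNAs, none rose and 2 fell with shRNA-1, namely Snhg1 and Snhg12, while 34.7% of all genes tested were called (17.4% higher, 17.3% lower). With shRNA-2, none rose and 3 fell, namely Gas5, Snhg1 and Snhg12, while 48.7% of all genes were called (24.4% higher, 24.2% lower). Snhg1 and Snhg12 fell with both hairpins, as did 9.57% of all genes. The median log2 fold change of the 5 RNAs was -1.16 with shRNA-1 and -0.83 with shRNA-2, and the medians over all genes tested were 0.02 with shRNA-1 and 0.00 with shRNA-2. Dropping control replicate 3 brought the median of the 5 RNAs to -0.03 for shRNA-1 and -0.51 for shRNA-2, and putting the ribosomal share into the fit brought it to 0.11 for shRNA-1 and -0.71 for shRNA-2. Calls were made with edgeR's quasi-likelihood test at a Benjamini-Hochberg adjusted p under 0.05 over all 12663 genes. Both comparisons use the same 3 control libraries, so their results are not independent. In bulk RNA, fewer cells of a type and less RNA per cell cannot be told apart.

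**Figure D2:**
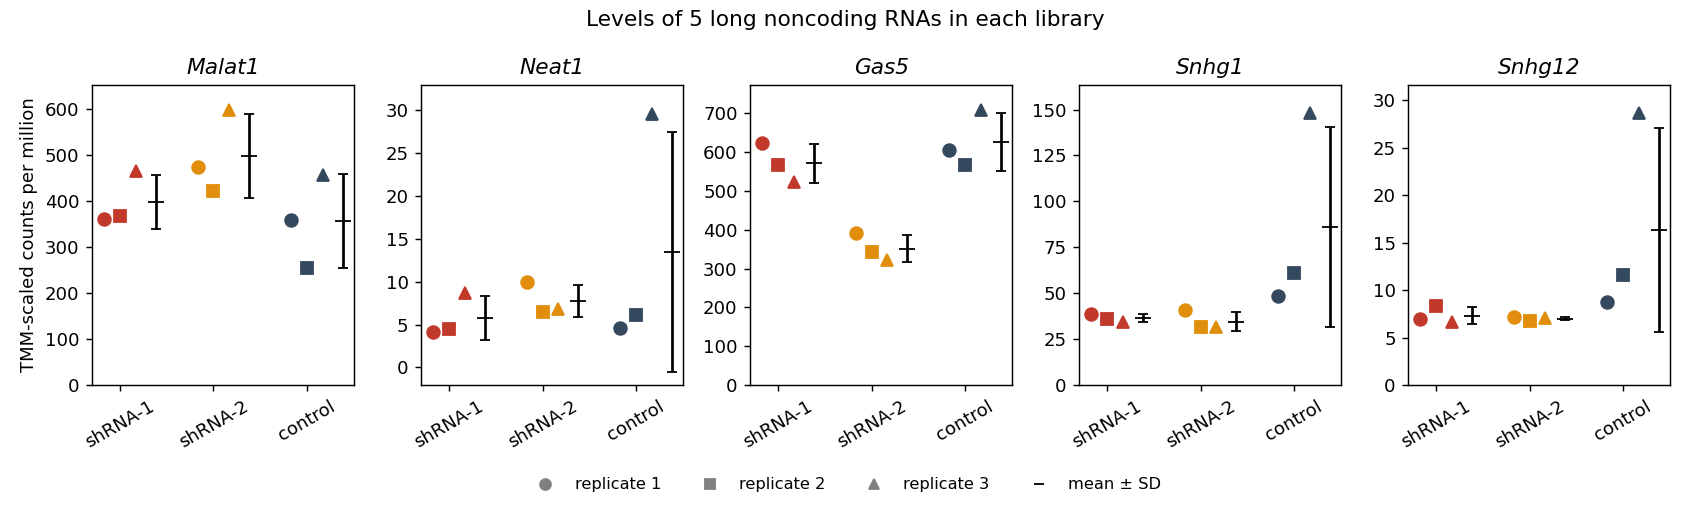
TMM-scaled CPM (linear axis, a separate scale for each RNA) of the 5 tested RNAs in each library, by group, with the mean ± SD of 3 libraries beside the points. Control replicate 3 is the highest library for Neat1 (29.6 CPM), Gas5 (709 CPM), Snhg1 (148 CPM) and Snhg12 (28.7 CPM), and the Gas5 values with shRNA-2 lie below all others.

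Set per kilobase of transcript, Gas5 was the most abundant of these RNAs. Its mean level was 858 CPM per kb with shRNA-1, 529 CPM per kb with shRNA-2 and 942 CPM per kb in control cells, on a 665-base transcript of 10 exons. Malat1 followed at 57.0 CPM per kb with shRNA-1, 71.3 with shRNA-2 and 51.2 in control cells. Snhg1 (709 bases, 9 exons) stood at 51.3 CPM per kb with shRNA-1, 48.8 with shRNA-2 and 121 in control cells, below Malat1 in both knockdowns and above it in control cells. Snhg12 (1538 bases) had 4.78 CPM per kb with shRNA-1, 4.57 with shRNA-2 and 10.6 in control cells. Neat1 had 0.278 CPM per kb of its 20771-base long form with shRNA-1, 0.373 with shRNA-2 and 0.647 in control cells. The control level without its replicate 3 was 0.258 CPM per kb for Neat1, below both knockdowns, 77.6 for Snhg1 and 6.63 for Snhg12. By this measure Gas5, Malat1 and Snhg1 stood highest and Neat1 and Miat lowest, with Neat1 set on its long form. In plain CPM the order differed. Malat1 averaged 398 CPM with shRNA-1, 498 with shRNA-2 and 357 in control cells, above Snhg1 in every group. Gas5 averaged 571 CPM with shRNA-1, 352 with shRNA-2 and 626 in control cells, so it was below Malat1 with shRNA-2. Neat1 averaged 5.77 CPM with shRNA-1, 7.75 with shRNA-2 and 13.4 in control cells. Oligo-dT priming weighs tail ends, so a level per length understates a long RNA.

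The nuclear RNAs Malat1 and Neat1 are encoded side by side on chromosome 19, on the minus strand. Malat1 (chr19:5795690-5802672) is a 1-exon transcript of 6983 bases. It had 361, 367 and 465 CPM with shRNA-1, 474, 422 and 599 CPM with shRNA-2, and 359, 255 and 458 CPM in control cells. The shRNA-1 values lay within the control range except for replicate 3, which was just above it, and 2 of the 3 shRNA-2 libraries lay above all controls. The log2 fold change was 0.15 ± 0.21 (SE) with shRNA-1 (edgeR adjusted p = 0.596) and 0.48 ± 0.21 with shRNA-2 (edgeR adjusted p = 0.0756), and neither passed the threshold. Without control replicate 3 the shRNA-2 value was 0.71 ± 0.21 (edgeR adjusted p = 0.0207). With no filter on low counts and all 9 libraries it was 0.46 ± 0.16 (edgeR adjusted p = 0.0198). Between shRNA-1 and shRNA-2 the log2 fold change of -0.32 ± 0.21 did not pass (edgeR adjusted p = 0.237). Scaled by total counts without TMM, or without control replicate 2, the shRNA-1 value turned to -0.11 and -0.049 in that order, neither called. Each library held 3290 to 10357 Malat1 reads.

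Neat1 (chr19:5824708-5845478) is the scaffold of paraspeckles, with a polyadenylated short form of 3004 bases and a long form of 20771 bases that start at the same place. It had 4.17, 4.45 and 8.67 CPM with shRNA-1, 9.94, 6.50 and 6.81 CPM with shRNA-2, and 4.61, 6.10 and 29.6 CPM in control cells. Control replicate 3 had 669 Neat1 reads, and the other 8 libraries had 38 to 162. The log2 fold change was -1.23 ± 0.59 with shRNA-1 (edgeR adjusted p = 0.129) and -0.80 ± 0.57 with shRNA-2 (edgeR adjusted p = 0.264). Without control replicate 3 both signs turned, to 0.12 ± 0.34 with shRNA-1 (edgeR adjusted p = 0.838) and 0.56 ± 0.33 with shRNA-2 (edgeR adjusted p = 0.199). Between shRNA-1 and shRNA-2 the value was -0.43 ± 0.61 (edgeR adjusted p = 0.611). No direction can be given for Neat1 from these libraries. In counts per gene the short and long forms cannot be told apart.

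Gas5, a host of C/D box snoRNAs on the plus strand of chromosome 1 (chr1:161034422-161038539), fell with shRNA-2 and did not pass with shRNA-1. It had 623, 566 and 522 CPM with shRNA-1, 391, 342 and 322 CPM with shRNA-2, and 604, 566 and 709 CPM in control cells. All 3 shRNA-2 libraries lay below every other library, while the shRNA-1 and control values overlapped. Groups were as fully separated in 55.4% of all genes for shRNA-2 and control cells, and in 49.8% for shRNA-1 and shRNA-2. With shRNA-2 Gas5 was 1.78-fold lower than in control cells, a log2 fold change of -0.83 ± 0.14 (edgeR adjusted p = 0.000450). With shRNA-1 the log2 fold change was -0.13 ± 0.14 (edgeR adjusted p = 0.477). The difference between the hairpins was itself past the threshold: Gas5 was higher with shRNA-1 than with shRNA-2 by 0.70 ± 0.14 on the log2 scale (edgeR adjusted p = 0.00189). Among the 5 RNAs, only Gas5 passed the threshold between shRNA-1 and shRNA-2, in a comparison that called 41.0% of all genes (19.7% higher with shRNA-1). Leaving out any of the 9 libraries kept the shRNA-2 call, with log2 fold changes of -0.90 to -0.72. Of 25 annotated Gas5 transcripts, 20 retain an intron, and counts per gene do not separate them.

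Snhg1, a host of C/D box snoRNAs on the plus strand of chromosome 19 (chr19:8723475-8726443), fell with both hairpins. It had 38.5, 36.2 and 34.2 CPM with shRNA-1, 40.7, 31.6 and 31.5 CPM with shRNA-2, and 48.7, 61.3 and 148 CPM in control cells. All 6 knockdown libraries lay below all 3 control libraries, as was the case for 14.4% of all genes tested. For shRNA-1 alone, the groups were separated in either direction in 52.6% of genes. Snhg1 was 2.37-fold lower with shRNA-1, a log2 fold change of -1.25 ± 0.33 (edgeR adjusted p = 0.0126), and 2.49-fold lower with shRNA-2, a log2 fold change of -1.32 ± 0.33 (edgeR adjusted p = 0.00568). Control replicate 3 carried much of that size. Without it the log2 fold change was -0.59 ± 0.16 with shRNA-1 (edgeR adjusted p = 0.0257) and -0.65 ± 0.16 with shRNA-2 (edgeR adjusted p = 0.00919). That the libraries did not overlap then follows from the separation over all 3 controls and adds nothing to it. The 2 hairpins differed by 0.07 ± 0.33 on the log2 scale (shRNA-1 minus shRNA-2, edgeR adjusted p = 0.888 in the full fit).

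Snhg12, which hosts mainly H/ACA box snoRNAs on the plus strand of chromosome 4 (chr4:132308623-132311024), also fell with both hairpins. It had 7.03, 8.37 and 6.64 CPM with shRNA-1, 7.18, 6.81 and 7.08 CPM with shRNA-2, and 8.72, 11.7 and 28.7 CPM in control cells. The highest knockdown library (8.37 CPM) and the lowest control library (8.72 CPM) nearly met. Snhg12 was 2.23-fold lower with shRNA-1, a log2 fold change of -1.16 ± 0.36 (edgeR adjusted p = 0.0269), and 2.34-fold lower with shRNA-2, a log2 fold change of -1.23 ± 0.35 (edgeR adjusted p = 0.0132). Without control replicate 3 both calls were lost: the shRNA-1 value became -0.46 ± 0.20 (edgeR adjusted p = 0.117) and the shRNA-2 value -0.51 ± 0.19 (edgeR adjusted p = 0.0561). The shRNA-1 call was also lost when any of the 3 shRNA-1 libraries was left out, with edgeR adjusted p of 0.0677, 0.0574 and 0.0800. The hairpins differed from each other by 0.07 ± 0.37 (shRNA-1 minus shRNA-2, edgeR adjusted p = 0.904).

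The share of ribosomal RNA was higher in every shRNA-1 library than in every control library. With shRNA-2 it was 6.10%, 15.8% and 10.4%, which overlapped the 7.86%, 8.29% and 4.77% of the control libraries. Once the ribosomal share (log2) was put into the fit, the shRNA-1 fold change of Snhg1 was -0.35 ± 0.40 (edgeR adjusted p = 0.602) and that of Snhg12 was -0.27 ± 0.48 (edgeR adjusted p = 0.750). With shRNA-2, Snhg1 kept -0.83 ± 0.31 (edgeR adjusted p = 0.0467), Snhg12 had -0.73 ± 0.37 (edgeR adjusted p = 0.125) and Gas5 kept -0.71 ± 0.14 (edgeR adjusted p = 0.00148). Leaving the ribosomal RNA entries out of the table gave -1.27 for Snhg1 and -1.18 for Snhg12 with shRNA-1, both called. That setting does not adjust the other genes for the share, so it does not bear on the covariate fit. For shRNA-1, the share and the knockdown cannot be told apart.

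**Figure D3:**
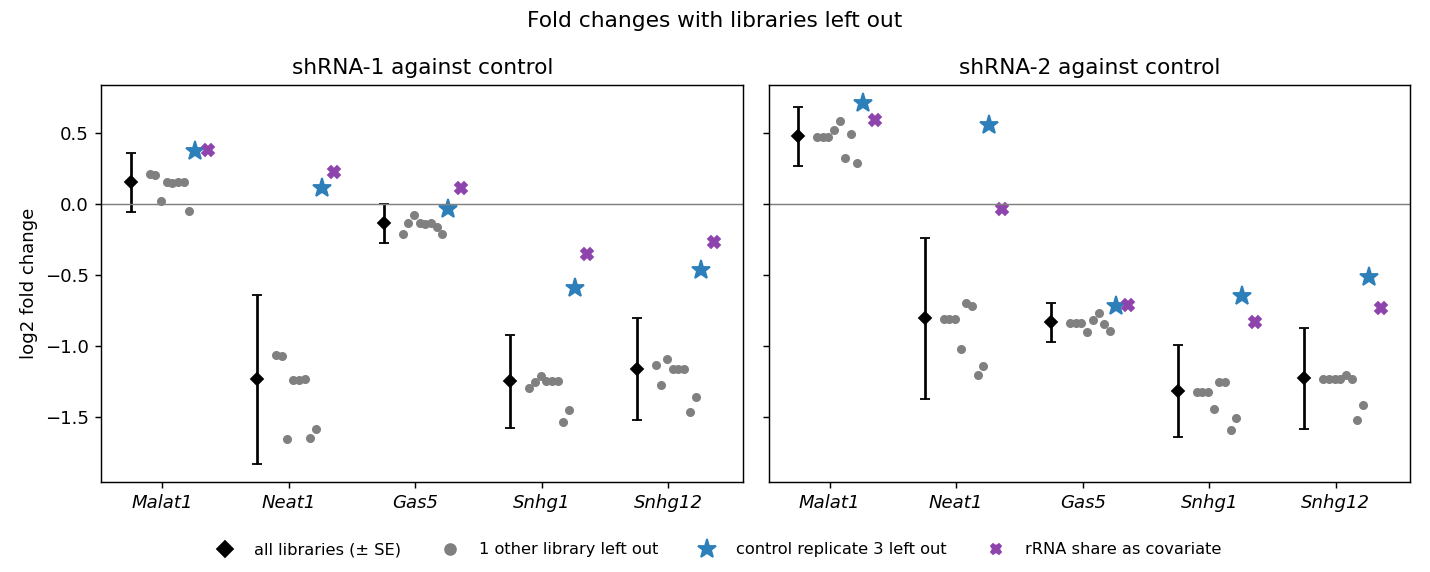
Log2 fold changes (linear axis) of the 5 tested RNAs with shRNA-1 (left) and shRNA-2 (right) against control cells: diamonds with SE bars use all 9 libraries, grey points leave out 1 other library, stars leave out control replicate 3 and crosses add the ribosomal RNA share as a covariate. For Neat1 the stars cross 0, to 0.12 and 0.56, and for Gas5 with shRNA-2 all points stay between -0.90 and -0.71.

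Miat (chr5:112213228-112229395, minus strand) had 2 reads in all, 1 in shRNA-2 replicate 2 and 1 in control replicate 1. It was not tested and no fold change is given, since 3 counts correspond to 0.133 to 0.329 CPM in these libraries and both groups lie below that. A lincRNA on the opposite strand, Gm26953, overlaps 13935 bases of it and had 0 reads. Kcnq1ot1 (chr7:143203458-143296549, minus strand) is a single unspliced transcript of 93092 bases with 10 runs of at least 10 A, the longest of 41 A. Kcnq1, the protein-coding gene that it runs antisense to, had 4 reads in all libraries together. Of 9 tested genes of the Kcnq1 imprinted domain, 1 fell with both hairpins and none rose with both, beside 9.57% and 9.24% of all genes, a fall that was lost when the ribosomal share entered the fit. That was Cars, the cysteinyl-tRNA synthetase gene, with log2 fold changes of -0.66 ± 0.12 with shRNA-1 (edgeR adjusted p = 0.00206) and -0.69 ± 0.12 with shRNA-2 (edgeR adjusted p = 0.000639). Cdkn1c, the nearest protein-coding gene above Kcnq1ot1 and a cell cycle inhibitor expressed from the maternal copy, went apart between the hairpins. It had 4.83, 5.91 and 3.88 CPM with shRNA-1, 14.9, 21.6 and 35.8 CPM with shRNA-2, and 9.38, 12.0 and 8.93 CPM in control cells. Cdkn1c fell with shRNA-1 (-1.04 ± 0.30, edgeR adjusted p = 0.0211) and rose with shRNA-2 (1.26 ± 0.28, edgeR adjusted p = 0.00273), and the difference, shRNA-1 minus shRNA-2, of -2.30 ± 0.30 passed (edgeR adjusted p = 0.000130). The Cdkn1c fall with shRNA-1 no longer passed when its replicate 1 (edgeR adjusted p = 0.0522), its replicate 3 (edgeR adjusted p = 0.0779) or control replicate 2 (edgeR adjusted p = 0.0716) was dropped.

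The snoRNAs within the 3 hosts were nearly without reads, which does not show that they were absent. Counts per gene do not show how reads shared by a snoRNA and a host transcript were assigned. GENCODE M21 has 20 retained-intron transcripts for Gas5, 14 for Snhg1 and 0 for Snhg12. Of 9 annotated within Gas5, 7 had an entry and none had a read. None of 8 within Snhg1 had a read, and 1 of 4 within Snhg12 did. That one was Snora16a, an H/ACA guide RNA at chr4:132309465-132309600, with 24, 38 and 69 reads with shRNA-1, 6, 10 and 8 reads with shRNA-2, and 14, 11 and 11 reads in control cells. Snora16a rose with shRNA-1 by 2.64 ± 0.41 on the log2 scale (edgeR adjusted p = 0.000852), while its host fell. With shRNA-2 its log2 fold change was -0.20 ± 0.49 (edgeR adjusted p = 0.760). Mature snoRNAs have no poly(A) tail. The ribosomal RNA share was higher in every shRNA-1 library than in every control library, and the cause of the Snora16a rise was not tested. With that share in the fit, the shRNA-1 log2 fold change of Snora16a was 1.35 ± 0.54 (edgeR adjusted p = 0.125).

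Other snoRNA hosts did not move as a block. Of 13 tested, 1 rose and 1 fell with both hairpins, against a background of 9.24% of genes higher and 9.57% lower with both. Their median log2 fold change was -0.08 for shRNA-1 and -0.47 for shRNA-2, and dropping control replicate 3 made it 0.47 for shRNA-1 and -0.09 for shRNA-2. Snhg5, a C/D box snoRNA host, had 16.0, 18.0 and 14.7 CPM with shRNA-1, 21.8, 14.1 and 13.6 CPM with shRNA-2, and 27.3, 33.5 and 95.9 CPM in control cells, with control replicate 3 far above the rest as for Snhg1. It fell by 1.69 ± 0.40 with shRNA-1 (edgeR adjusted p = 0.00727) and 1.66 ± 0.39 with shRNA-2 (edgeR adjusted p = 0.00429) on the log2 scale. Snhg5 had, once control replicate 3 was dropped, a log2 fold change of -0.90 ± 0.21 with shRNA-1 (edgeR adjusted p = 0.0145) and -0.86 ± 0.21 with shRNA-2 (edgeR adjusted p = 0.00847). With the ribosomal share in the fit the shRNA-1 call was lost, at -0.44 ± 0.43 (edgeR adjusted p = 0.532), and the shRNA-2 value was -1.01 ± 0.33 (edgeR adjusted p = 0.0273). Snhg4, host of H/ACA snoRNAs, rose by 0.99 ± 0.16 with shRNA-1 (edgeR adjusted p = 0.00100) and 0.48 ± 0.16 with shRNA-2 (edgeR adjusted p = 0.0267). Its shRNA-2 call was lost without shRNA-2 replicate 1 or 2 or control replicate 1 or 2 (edgeR adjusted p = 0.0538 to 0.0970). Without TMM scaling the median of all genes became -0.23 (shRNA-1) and -0.21 (shRNA-2), the rise of any host with both hairpins was lost and 3 hosts fell with both, beside 4.58% of all genes higher and 16.7% lower with both. Leaving out control replicate 3 gave 2 rises and 1 fall with both, and a fit with the ribosomal share gave 1 rise and no fall. Those settings called 6.32% and 4.19% of all genes higher with both, and 5.80% and 2.41% lower with both. In the reported fit, taking each hairpin by itself, 3 hosts rose and 1 fell with shRNA-1, beside 17.4% of all genes higher and 17.3% lower. With shRNA-2, 1 host rose and 5 fell, beside 24.4% of all genes higher and 24.2% lower. The counts for each hairpin take in Snhg4 and Snhg5.

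**Figure D4:**
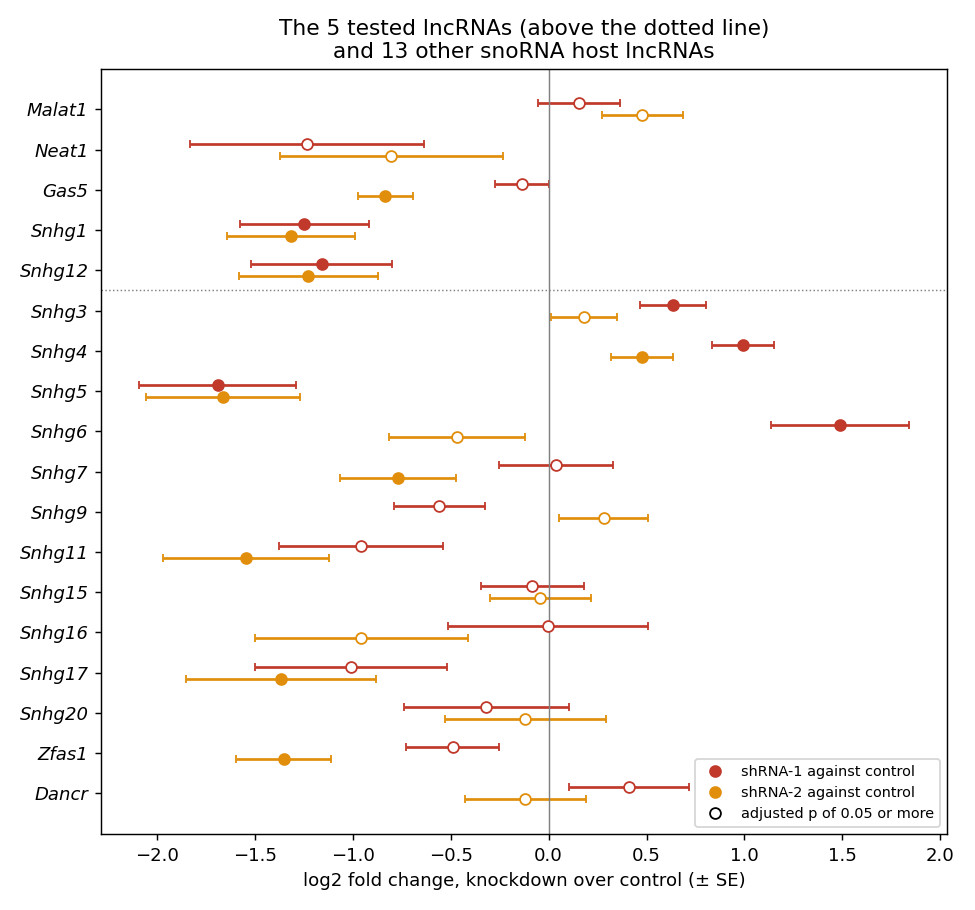
Log2 fold changes with SE bars (linear axis) of the 5 tested RNAs and, below the dotted line, 13 other snoRNA host RNAs, with shRNA-1 above shRNA-2 in each row and filled symbols at an adjusted p under 0.05. Snhg1 (-1.25 and -1.32), Snhg12 (-1.16 and -1.23) and Snhg5 (-1.69 and -1.66) have filled symbols left of 0 with both hairpins, and Snhg4 (0.99 and 0.48) is filled right of 0 with both.

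Among 11 other named long noncoding RNAs, 1 rose and 2 fell with both hairpins, beside 9.24% of all genes higher and 9.57% lower with both, and with the ribosomal share in the fit none rose and 2 fell. Tug1, a spliced RNA named for taurine-induced expression in retina, averaged 8.48 ± 0.123 CPM with shRNA-1, 10.4 ± 0.136 CPM with shRNA-2 and 23.5 ± 2.98 CPM in control cells (SD, n = 3 each). Its fall was 2.76-fold with shRNA-1 (log2 fold change -1.46 ± 0.14, edgeR adjusted p = 6.04e-05) and 2.26-fold with shRNA-2 (-1.18 ± 0.14, edgeR adjusted p = 3.71e-05). Control replicate 3 was the lowest control for Tug1, so the pattern seen for Snhg1 and Neat1 is not shared by all such RNAs. Oip5os1 (also called Cyrano) fell by 0.72 ± 0.11 on the log2 scale with shRNA-1 (edgeR adjusted p = 0.000692) and by 0.36 ± 0.11 with shRNA-2 (edgeR adjusted p = 0.0139), a shRNA-2 call that was lost without shRNA-2 replicate 3 or control replicate 1. Hotairm1, transcribed from the Hoxa cluster in myeloid cells, rose by 1.43 ± 0.28 with shRNA-1 and 1.79 ± 0.27 with shRNA-2 (edgeR adjusted p = 0.00290 and 0.000260) on the log2 scale. Hotairm1 averaged 3.55 ± 0.249 CPM with shRNA-1, 4.57 ± 0.479 CPM with shRNA-2 and 1.34 ± 0.468 CPM in control cells (SD, n = 3 each).

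Genes for proteins that work with these RNAs were listed as known partners. Their counts are set beside the shares of all genes, 9.57% lower with both hairpins and 9.24% higher. The share lower with both was 5.80% without control replicate 3, 2.41% with the ribosomal share in the fit and 16.7% without TMM scaling. Of 17 paraspeckle protein genes, none rose and 4 fell with both hairpins, namely Nono, Pspc1, Dazap1 and Taf15. The core paraspeckle gene Nono had log2 fold changes of -0.65 ± 0.21 with shRNA-1 (edgeR adjusted p = 0.0292) and -0.75 ± 0.21 with shRNA-2 (edgeR adjusted p = 0.00986). The shRNA-1 call of Nono was lost without shRNA-1 replicate 1 or 2 or control replicate 2 or 3 (edgeR adjusted p = 0.0800 to 0.115). The count of 4 dropped to 1 when control replicate 3 was left out and to 0 when the ribosomal share entered the fit. The list's median log2 fold change was -0.20 for shRNA-1 and -0.57 for shRNA-2. For shRNA-1 it was -0.01 once the ribosomal share entered the fit. Sfpq, which pairs with Nono and is needed for paraspeckles, fell with shRNA-2 (-0.55 ± 0.16, edgeR adjusted p = 0.0135) and had -0.30 ± 0.16 with shRNA-1 (edgeR adjusted p = 0.170). The Sfpq call was lost without control replicate 1 (edgeR adjusted p = 0.0738). It was named after its values were seen.

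Of 15 nuclear speckle protein genes, none rose and 6 fell with both hairpins, Son and Srsf11 among them. Of all genes, 9.24% were higher and 9.57% lower with both. Son, the speckle scaffold protein, had 219, 223 and 217 CPM with shRNA-1, 209, 132 and 205 CPM with shRNA-2, and 376, 372 and 389 CPM in control cells. Its log2 fold changes were -0.79 ± 0.16 with shRNA-1 (edgeR adjusted p = 0.00334) and -1.06 ± 0.16 with shRNA-2 (edgeR adjusted p = 0.000243). Leaving out control replicate 3 gave 3 falls, beside 5.80% of all genes lower with both. A fit with the ribosomal share gave no fall and 1 rise, beside 2.41% of all genes lower and 4.19% higher with both. The list's median log2 fold change was -0.44 for shRNA-1 and -0.67 for shRNA-2, and with the ribosomal share in the fit the shRNA-1 median was -0.11. Malat1, the RNA of the same bodies, had 0.15 with shRNA-1 and 0.48 with shRNA-2, neither past the threshold.

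Nonsense-mediated decay removes the spliced RNAs of several snoRNA hosts, and decay itself was not measured here. Of 16 decay factor genes, none rose and 6 fell with both hairpins, beside 9.24% of all genes higher and 9.57% lower with both. The list's median log2 fold change was -0.27 with shRNA-1 and -0.47 with shRNA-2. Upf3b, which bridges the exon junction complex to the decay machinery, had 16.1 to 22.2 CPM with shRNA-1, 15.9 to 53.8 CPM with shRNA-2 and 65.3 to 97.0 CPM in control cells. It was 4.01-fold lower with shRNA-1 (edgeR adjusted p = 0.00130) and 2.21-fold lower with shRNA-2 (edgeR adjusted p = 0.0124). The shRNA-2 call of Upf3b was lost when control replicate 3 was dropped, at a log2 fold change of -0.93 ± 0.36 (edgeR adjusted p = 0.0614). Upf2, its partner, had log2 fold changes of -1.06 ± 0.23 with shRNA-1 (edgeR adjusted p = 0.00441) and -0.92 ± 0.22 with shRNA-2 (edgeR adjusted p = 0.00517). Leaving out control replicate 3 gave a count of 4 falls with both, beside 5.80% of all genes. A fit with the ribosomal share gave 0, beside 2.41% of all genes.

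The proteins that bind and process snoRNAs gave 6 falls and no rise with both hairpins among 15 genes tested. Of all genes, 9.57% were lower and 9.24% higher with both. The list's median log2 fold change was -0.23 for shRNA-1 and -0.77 for shRNA-2. Dkc1, the pseudouridine synthase of H/ACA particles, had 217, 194 and 215 CPM with shRNA-1, 284, 160 and 235 CPM with shRNA-2, and 477, 517 and 646 CPM in control cells. Its log2 fold changes were -1.39 ± 0.20 with shRNA-1 (edgeR adjusted p = 0.000510) and -1.27 ± 0.19 with shRNA-2 (edgeR adjusted p = 0.000259). Naf1, an H/ACA assembly factor, had -0.83 ± 0.13 with shRNA-1 (edgeR adjusted p = 0.000914) and -1.25 ± 0.13 with shRNA-2 (edgeR adjusted p = 1.90e-05), and the C/D box core protein genes Nop56 and Nop58 fell too. The count of falls with both hairpins stayed at 6 when control replicate 3 was left out, beside 5.80% of all genes. It became 4 when the ribosomal share entered the fit, beside 2.41% of all genes. Of 12 genes for the enzymes that cut and finish the Malat1 end, none rose and 2 fell with both hairpins, also under both of these settings. Without TMM scaling 4 fell, beside 16.7% of all genes. The 2 that fell with TMM scaling were Elac2, the tRNase Z that trims mascRNA (-0.79 ± 0.13 with shRNA-1 and -0.96 ± 0.13 with shRNA-2, edgeR adjusted p = 0.00101 and 9.30e-05), and Rpp40, an RNase P subunit (-0.67 ± 0.12 with shRNA-1 and -0.95 ± 0.12 with shRNA-2, edgeR adjusted p = 0.00139 and 5.44e-05). The lists' medians are set beside all-gene medians of 0.02 with shRNA-1 and 0.00 with shRNA-2 and were given no test of their own. With the ribosomal share in the fit, the shRNA-1 calls of Nono, Pspc1, Dazap1, Taf15, Son, Srsf11, Upf2, Upf3b, Nop58, Cars, Cdkn1c, Frmd8, Slc3a2 and Hotairm1 were all lost, and Dkc1 had -0.86 ± 0.21 with shRNA-1 (edgeR adjusted p = 0.0273).

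The protein-coding neighbours of these RNAs moved in both directions. Frmd8, a partner of the iRhom sheddase regulators, lies 4223 bases from Neat1 and rose with both hairpins, by 0.47 ± 0.11 with shRNA-1 (edgeR adjusted p = 0.00824) and 0.45 ± 0.11 with shRNA-2 (edgeR adjusted p = 0.00622) on the log2 scale. Both Frmd8 calls were lost without TMM scaling (0.23 ± 0.13 and edgeR adjusted p = 0.190 with shRNA-1, 0.24 ± 0.13 and edgeR adjusted p = 0.143 with shRNA-2). Slc3a2, the heavy chain of amino acid transporters, starts 105 bases from Snhg1 on the opposite strand. It rose with shRNA-1 (0.37 ± 0.13, edgeR adjusted p = 0.0384), where Snhg1 fell, and had -0.02 ± 0.13 with shRNA-2 (edgeR adjusted p = 0.927). The Slc3a2 call was lost without TMM scaling (edgeR adjusted p = 0.446) and on leaving out any of 6 of the 9 libraries, namely the 3 shRNA-1 libraries, shRNA-2 replicate 3 and control replicates 2 and 3 (edgeR adjusted p = 0.0520 to 0.152). Wdr74, a ribosome assembly factor 9383 bases past Snhg1, fell with shRNA-2 (-0.85 ± 0.12, edgeR adjusted p = 0.000178) and had -0.27 ± 0.12 with shRNA-1 (edgeR adjusted p = 0.106). Trnau1ap, which acts in selenocysteine incorporation, lies 738 bases from Snhg12 and rose with shRNA-2 (0.52 ± 0.16, edgeR adjusted p = 0.0181), where Snhg12 fell. That call was lost without shRNA-2 replicate 2 (0.33 ± 0.13, edgeR adjusted p = 0.0656) and without TMM scaling (0.29 ± 0.14, edgeR adjusted p = 0.114). Zbtb37 overlaps Gas5 by 428 bases on the opposite strand and had 165 reads in all. Counts per gene do not show how reads in the shared bases were assigned.

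Across the 9 libraries, Snhg1 and Snhg12 varied together, with a Pearson correlation of log2 CPM of 0.98. Snhg5 was the gene most like Snhg1 (0.992) among 5819 genes with a mean of at least 20 CPM, followed by Snrnp48 (0.971), a protein of the minor spliceosome. Snhg12 was most like Snhg1 and then Snhg5 (0.968). Gas5 was most like Tipin (0.988), a replication fork protection gene, and Suv39h1 (0.984), a histone H3 lysine methyltransferase gene. Tipin had 221, 203 and 203 CPM with shRNA-1, 124, 104 and 94.1 CPM with shRNA-2, and 243, 212 and 254 CPM in control cells, with the shRNA-2 libraries below all others as for Gas5. Malat1 was most like Stx2 (0.893) and Klhl2 (0.865), and Neat1 was most like Zc3h7a (0.873) and the mitochondrial mt-Cytb (0.840). Gas5 and Snhg1 correlated at 0.64 and Malat1 and Gas5 at -0.54. These correlations describe 9 libraries in 3 groups, which share group differences, library depth and control replicate 3.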

How the data were processed

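RNA was profiled in 9 libraries, 3 per group. Per the submitters' processing notes, STAR 2.3.0e, HTSeq 0.6.0 and build mm10 were used. Nothing in the sources used here gives the strand setting, the annotation release or the handling of multiply mapped reads, so reads of overlapping genes on opposite strands cannot be told apart. The deposited tables hold raw read counts per gene symbol as the authors made them, with 39179 entries. Symbols in several entries (176, with 0.275% of the counts) were summed.

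The filterByExpr filter by group took out genes with 0.0908% of the counts. The rest were scaled by TMM and fitted over all 9 libraries with the group as the only term in edgeR 4.0.16 (R 4.3.3). The quasi-likelihood test was used, with Benjamini-Hochberg adjustment over 12663 genes and a threshold of 0.05; the common biological coefficient of variation was 0.165. Levels are TMM-scaled CPM, as mean ± SD. Totals ran from 9559638 to 19483923 counts per library, where 3 counts equal 0.329 to 0.133 CPM, a limit that covers counting error only. Replicates were compared and none was a repeat of another. The fit was tested on simulated data. Positions, transcripts and tail sequences came from GENCODE M21 (GRCm38, the assembly of mm10) and start sequences from RefSeq (GRCm38.p6).

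The 7 RNAs and the lists of partner genes were chosen with earlier results of these data known. Of 167 list genes 158 had an entry, 10 of them under an older symbol. The genes named are all 7 RNAs, up to 3 largest rises and falls with both hairpins per list (some are not reported here), the nearest protein-coding gene on each side, the snoRNAs within the hosts, and the 2 genes most like each RNA by Pearson correlation of log2(CPM + 0.5). Alternatives were DESeq2 1.42.0, its size factors within edgeR, limma-voom (limma 3.58.1), library totals in place of TMM, no filter or at least 5 CPM in 3 libraries, the replicate block, fits of only the groups compared, ribosomal RNA left out or as a covariate, an adjusted p under 0.01 and leaving out each library.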

Additional observations from a re-analysis of the deposited data

Results flagged for a closer look

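The response of Gas5 differed between the hairpins. Its log2 fold change with shRNA-1 minus that with shRNA-2 was 0.70 ± 0.14 (edgeR adjusted p = 0.00189), with all 3 shRNA-1 libraries above all 3 shRNA-2 libraries, and it stayed at 0.63 to 0.77 when each of the 9 libraries was left out in turn. Syncrip RNA averaged 17.8 CPM with shRNA-1 and 56.7 CPM with shRNA-2. Whether the levels of Syncrip and Gas5 are linked was not tested.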

How the results depend on the processing

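Gas5 with shRNA-2 and Snhg1 with shRNA-2 kept their direction and their call under every alternative run. The number of genes called with shRNA-1 was 4389 in the reported fit, 1358 with the ribosomal share in the fit and 2300 at an adjusted p under 0.01, and 2916 to 5178 with 1 library left out. The number of the 5 RNAs called with shRNA-1 was 2, against 1 with limma-voom, 0 with the ribosomal share as a covariate, 0 at an adjusted p under 0.01, and 1 to 3 with 1 library left out. With shRNA-2 the number was 3, against 5 with no filter on low counts, which gave Neat1 an adjusted p of 5.87e-05 with shRNA-1 and 0.00682 with shRNA-2. It was 3 whichever library was left out (without control replicate 3, Malat1 was called and Snhg12 was not), while 6162 genes became 5141 to 6432. Between shRNA-1 and shRNA-2, 5192 genes became 3318 at an adjusted p under 0.01 and 4028 to 5412 with 1 library left out, with 1 of the 5 RNAs called throughout.

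The signs that turned belonged to values past no threshold. Malat1 with shRNA-1 was -0.11 with total counts and -0.049 without control replicate 2, with a range of -0.049 to 0.37 over the libraries left out. Without control replicate 3, Neat1 was 0.12 with shRNA-1, in a range of -1.65 to 0.12 over the libraries left out, and 0.56 with shRNA-2, in a range of -1.20 to 0.56. It was 0.23 with shRNA-1 and 0.27 between the hairpins with the ribosomal share as a covariate, which also gave Gas5 with shRNA-1 0.11. Snhg12 between the hairpins was -0.041 without shRNA-1 replicate 2, in a range of -0.041 to 0.14. The causes were not tested. Without control replicate 1, Neat1 with shRNA-1 was -1.65 with an edgeR adjusted p of 0.0424.

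With the replicate number as a block, 4963, 6645 and 5640 genes were called with shRNA-1, with shRNA-2 and between them, and 2, 4 and 1 of the 5 RNAs. The RNA added was Malat1 with shRNA-2, at 0.50 (edgeR adjusted p = 0.00600). Same-numbered libraries deviated together in 6 of 9 pairs (correlation over 0.1), and 6 of 9 libraries correlated best with their own number, a hint from the data and not from the design, so the numbers were not taken as pairs. With 3 libraries a group and 38 Neat1 reads in the lowest, depth and the spread among controls limit what can be said of Neat1 and Snhg12. For genes and lists other than the 5 RNAs, leaving out libraries, the ribosomal share as a covariate and total counts were chosen after seeing the data.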

Other observations

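Among 9314 genes with a mean of at least 5 CPM, the number at least 2-fold above both other libraries of the same group was 11, 1 and 17 for the shRNA-1 replicates, 97, 13 and 0 for the shRNA-2 replicates, and 3, 5 and 21 for the control replicates. Control replicate 3 thus had fewer such genes than shRNA-2 replicate 1, but they included Neat1, Snhg12 and Snhg1.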
